A study of Mus musculus with 9 samples.

Results

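Fetal mouse ovaries that had spent 10 days under the kidney capsule of male mice were compared with ovaries of the age at which grafting began. Of the 9 arrays of the series, 4 enter the comparison, namely replicates 1 and 2 of the grafts recovered on day 10 post-transplantation and replicates 1 and 2 of the ovaries of day 0. All 45101 probe sets of the array were used, and a change was kept where both day 10 arrays lay beyond both day 0 arrays. The grafts and the day 0 ovaries both came from XX embryos at embryonic day 13 (E13.0), whose mothers had received busulfan, an alkylating agent that depletes germ cells, and the day 0 ovaries were not grafted. The hosts were adult XY BALB/c nu/nu nude mice, which lack a thymus and therefore mature T cells but keep other leukocytes. The sample labels name ICR as the donor strain, whereas the methods of the study name C57BL/6 and ICR. An array stands for a pool, of about 10 grafts on day 10. Duplicates are labelled as biological replicates, yet nothing used here says which litters or hosts went into them, so that the p-values reflect no more than the scatter among these arrays, which may be technical. No ungrafted ovary of the age that the grafts had reached was measured here, and therefore age and grafting cannot be told apart. In pooled tissue, fewer cells of a type and less RNA per cell cannot be told apart either.

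At this stage, a fetal ovary holds germ cells, supporting pre-granulosa cells, stromal progenitors, vessels and blood. Pre-granulosa cells are kept on the ovarian path by the transcription factor FOXL2 and by WNT4 and RSPO1, which act through beta-catenin. In the following weeks oocytes arrest in meiosis, become enclosed by granulosa cells in follicles, and build the zona pellucida and the maternal stores of the future egg. Granulosa cells of growing follicles then make inhibins and estradiol, and the stroma lays down collagen. A graft has to be joined to vessels of the host, and host leukocytes can enter it.

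The arrays measured each transcript with sets of short probes near its 3′ end. All levels here are deposited log2 intensities, so that a difference of 1 means a 2-fold change, and levels of different genes are not comparable with each other. The medians of the 4 arrays lay between 6.49 and 6.63. Between duplicates, the difference had a standard deviation of 0.343 on day 10 and of 0.447 on day 0 over all probe sets. The day 20 duplicates, which also set the spread behind each p, differed more, with a standard deviation of 0.697. Levels under 4.82, the 25th percentile of all values, were treated as near background, where fold changes have an uncertain size. A probe set or gene is said to be called, or to have risen or fallen, where its adjusted p in limma was under 0.05, the change was over 2-fold and both day 10 arrays lay beyond both day 0 arrays. With 2 arrays against 2, an exact permutation test of a single gene cannot give a two-sided p below 0.333, so that the calls rest on the spread pooled over genes.

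In the day 10 grafts, 1293 of 45101 probe sets (2.87%) were called higher and 599 (1.33%) lower than in the day 0 ovaries. With each array centred on its own median the counts were 1271 higher and 861 lower, so that 59.6% in place of 68.3% of the calls were higher. Taken as genes, each by the probe set with the highest mean, 704 of 18194 (3.87%) were called higher and 366 (2.01%) lower. Counts of called list members given below are to be read against these shares. A fit on the 4 arrays of days 10 and 0 alone, which leaves the day 20 duplicates out of the spread, called 974 genes higher and 579 lower, 691 and 363 of them the same as with all 9 arrays. Position alone was a weak criterion, since both day 10 arrays lay above both day 0 arrays for 4160 genes (22.9%) and below them for 8079 genes (44.4%). The median log2 fold change of all genes was -0.13. Genes called higher had a median of 2.12 and genes called lower a median of -1.61, as the plot of all genes shows. The gap between the nearest arrays of the days was over 1 for 887 genes above and 434 below, and over 3 for 113 genes above and 21 below. Day 0 lay under 4.82 for 80 of the genes called higher, and day 10 for 42 of those called lower. Of the 530 called genes with over 1 probe set, 428 had all of them moving to the same side, and 1 had a probe set called the other way. Of the 127 called genes with over 1 probe set among those named, 25 had a median over their probe sets of under 2-fold, so that their calls rested on some probe sets only. They include Boc, Cdon, Col4a1, Dbp, Notch1 and Ntn1, and the others that appear below are marked there. Just inside the thresholds lay Mapk10, which encodes a JNK kinase (adjusted p = 0.0499), and Irf2, an interferon regulatory factor gene (log2 fold change 1.0001). Just outside lay Pcdhb16, a protocadherin gene (adjusted p = 0.05001), and Stat5a, which encodes a transducer of cytokine signals (log2 fold change 0.996).

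**Figure D1:**
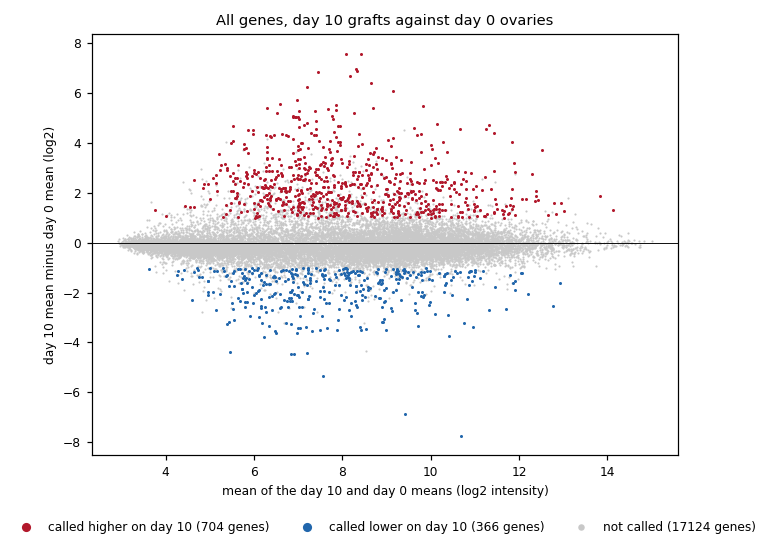
Log2 fold change of each of 18194 genes between the day 10 grafts and the day 0 ovaries (vertical axis) against the mean of the day 10 and day 0 levels (horizontal axis, log2 intensity). The 704 genes called higher (red) reach 7.59, the 366 called lower (blue) stand below -1, and most genes not called (grey) lie around 0.

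The calls leaned on every one of the 4 arrays. Of the 1070 called genes, the call was kept by 109 and 55 when the first or the second day 10 array was left out, and by 190 and 242 when the first or the second day 0 array was. Leaving out an array leaves that day with 1 array, which is then assumed to vary like the other days. A set of 37 genes, 32 higher and 5 lower, kept the call whichever of the 4 was left out. Markers of the host kidney were checked. On day 20, replicate 1 stood above replicate 2 in all 17 genes of the kidney proximal tubule, by a median of 5.99, and in all 13 of the distal nephron, by 2.84. The standard errors of these lists were therefore wide (medians 1.80 and 0.857, against 0.207 for all genes), and that none of their genes was called between days 10 and 0 with all 9 arrays says little (1 and 1 at an unadjusted p under 0.05). On the 4 arrays alone, 1 proximal gene was called higher, the amino acid transporter gene Slc7a7, with 8.01 and 8.17 on day 10 and 7.09 and 7.001 on day 0, and 1 distal gene lower, the calcium-binding protein gene Calb1, with 6.24 and 6.49 on day 10 and 10.51 and 10.87 on day 0. Between the day 10 arrays, replicate 2 stood above replicate 1 in 16 of the 17 proximal genes, by a median of 0.733, against -0.06 over all genes. The part of kidney tissue in the results was not tested. The apical endocytosis receptor gene Lrp2 stood at 5.26 and 6.20 on day 10, against 5.95 and 5.92 on day 0. Miox, which encodes an inositol oxygenase of the proximal tubule, stood at 7.96 and 10.19 on day 10, against 5.43 and 5.58 on day 0. Both day 10 arrays lay above, replicate 2 far more than replicate 1, and the difference did not pass (adjusted p = 0.211). None of 6 Y-linked genes was called with all 9 arrays in limma (2 were higher at an unadjusted p under 0.05). Both day 10 arrays lay above both day 0 arrays for 2 of the 6 and below them for 2, against 22.9% and 44.4% of all genes, with a median log2 fold change of 0.23. Eif2s3y, a translation factor gene of the Y chromosome, stood at 6.20 and 6.13 on day 10, against 3.63 and 3.73 on day 0 (adjusted p = 0.113), and was called higher on the 4 arrays alone (adjusted p = 0.00541 in limma). The other of its 2 probe sets had the opposite sign (median of both 1.17). S100a8, which encodes a calcium-binding protein of neutrophils, stood at 6.18 and 10.43 on day 10, against 10.01 and 6.04 on day 0. The groups therefore overlapped fully, with day 10 replicate 2 and day 0 replicate 1 high.

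Genes with the widest gaps between the days came from several tissues. Slc18a2, a vesicular monoamine transporter gene, stood at 12.37 and 12.04 on day 10, against 4.05 and 5.19 on day 0, and rose 191-fold, from a day 0 mean near background. Nlrp14, which encodes an oocyte protein of the NLR family, stood at 10.98 and 12.75 on day 10, against 3.78 and 4.78 on day 0. Ogn, the gene of the matrix proteoglycan osteoglycin, stood at 12.73 and 12.40 on day 10, against 6.89 and 7.28 on day 0. The nearest arrays of the days stood 6.85 apart for Slc18a2, 6.21 for Nlrp14 and 5.12 for Ogn. Penk, which encodes the precursor of enkephalin peptides, rose 43-fold (log2 fold change 5.43, standard error of the fit, SE, 0.27, adjusted p = 0.00219), with 11.68 and 11.14 on day 10 and 5.75 and 6.20 on day 0. Atp8b1, a phospholipid flippase gene, had log2 fold change 5.58, and Aoc3, which encodes an amine oxidase of smooth muscle, fat and endothelium, 5.04. Elobl and Khdc1b, with log2 fold changes of 6.67 and 6.26, had day 10 replicate 2 above replicate 1 by over 2 units. Of the 15 widest falls, the embryonic globin genes Hba-x, Hbb-y and Hbb-bh1 made the first 3. Myl7, which encodes the myosin light chain of the atrium, fell to 4.45 and 4.77 on day 10, against 9.56 and 8.57 on day 0. Dct, which encodes the pigment enzyme dopachrome tautomerase, fell to 5.03 and 5.29 on day 10, against 8.45 and 9.12 on day 0, and Msx2, a homeobox gene, to 4.71 and 4.42 on day 10, against 7.79 and 7.77 on day 0. Gabra4, a GABA-A receptor subunit gene, fell by 3.34 on the log2 scale, Igdcc3 fell by 3.44 and the ciliary gene Cfap161 fell by 3.49. In all of these the groups did not overlap, as the rule for the 30 genes requires. Of the 30 genes, 22 or 16 stayed called when day 10 lost replicate 1 or 2, and 22 or 23 when day 0 did (adjusted p of the others up to 0.148). Slc18a2, Aspn, Nlrp14, Ogn, Actg2, Penk, Aoc3, Mfap5, Hba-x and Hbb-bh1 kept it in all of these fits.

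**Figure D2:**
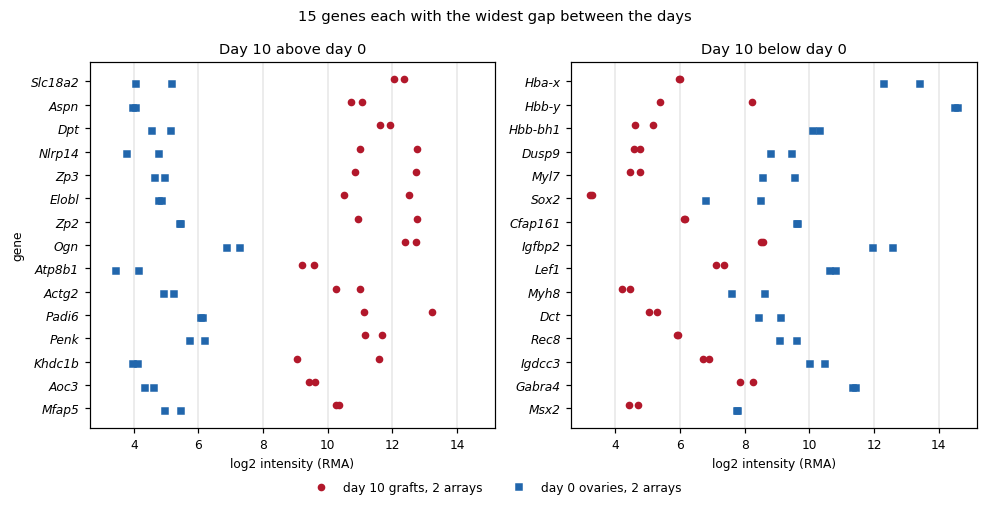
Levels (log2 intensity, horizontal axis) of the 15 genes with the widest gap upward and the 15 with the widest gap downward on the 2 day 10 arrays (red circles) and the 2 day 0 arrays (blue squares). The gap is 6.85 for Slc18a2 and -6.31 for Hba-x, and the oocyte genes Nlrp14, Zp3, Zp2 and Padi6 have their day 10 arrays over 1 unit apart.

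Oocyte genes had the highest median of the 61 lists. Of 16 measured genes of growing oocytes, 12 were called higher and none lower, with a median log2 fold change of 4.43. Zp3 and Zp2, which encode proteins of the zona pellucida, had the largest changes after Nlrp14. Zp3 stood at 10.85 and 12.74 on day 10, against 4.66 and 4.96 on day 0, and rose 126-fold from near background (log2 fold change 6.98, SE 0.63, adjusted p = 0.00701). Zp2 stood at 10.94 and 12.74 on day 10, against 5.42 and 5.47 on day 0. Both day 10 arrays were high and the groups far apart, with replicate 2 over 1 unit above replicate 1. Padi6, which encodes a peptidylarginine deiminase of the cytoplasmic lattices of the egg, stood at 11.12 and 13.24 on day 10, against 6.08 and 6.13 on day 0. Oosp1, which encodes a secreted oocyte protein, had a log2 fold change of 5.73, Nlrp5, which encodes a protein of the subcortical maternal complex of the egg, 5.31, and Zp1 4.90. The growth factor genes Gdf9 and Bmp15, through which the oocyte acts on granulosa cells, also rose. Gdf9 stood at 10.07 and 12.13 on day 10, against 6.82 and 7.11 on day 0, and Bmp15 at 6.61 and 8.66 on day 10, against 4.10 and 3.68 on day 0. Mos, which encodes the kinase of meiotic arrest, had a log2 fold change of 3.39, and the transcription factor genes Lhx8 and Nobox 4.33 and 3.09. Figla, which encodes the basic helix-loop-helix factor that turns on the zona genes, stood at 7.44 and 9.35 on day 10, against 5.30 and 6.56 on day 0, and did not pass (adjusted p = 0.141). Ooep, Zar1 and Sohlh1 did not pass either. Further oocyte genes outside the list, chosen after their values were seen, were called higher, namely Omt2b (5.39), Nlrp4f (5.03), Rfpl4 (4.95), Bcl2l10 (5.05) and the kinase gene Wee2 (4.31). Day 0 lay under 4.82 for these 5 genes and for Mos, Lhx8, Oosp1, Bmp15 and Nlrp14, so that the sizes of their changes are uncertain. On the 4 arrays alone 10 of the oocyte genes were called, without Bmp15 and Nobox.

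FIGLA is known to bind the E-box, CANNTG, in the promoters of zona genes. The 250 bases before the start of Zp3, Oosp1 and Padi6 are shown because these genes rose together, with each CANNTG in capitals, 5′ to 3′ on the strand of the gene (RefSeq, GRCm38.p6, chr5:135979855-135980104 on the plus strand, chr19:11691052-11691301 on the minus strand and chr4:140742644-140742893 on the minus strand).
Zp3: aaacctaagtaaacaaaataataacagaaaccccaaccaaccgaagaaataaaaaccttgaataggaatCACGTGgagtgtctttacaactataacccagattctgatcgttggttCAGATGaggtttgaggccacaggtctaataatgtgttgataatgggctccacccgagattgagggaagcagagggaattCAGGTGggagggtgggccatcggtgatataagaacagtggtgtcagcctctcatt
Oosp1: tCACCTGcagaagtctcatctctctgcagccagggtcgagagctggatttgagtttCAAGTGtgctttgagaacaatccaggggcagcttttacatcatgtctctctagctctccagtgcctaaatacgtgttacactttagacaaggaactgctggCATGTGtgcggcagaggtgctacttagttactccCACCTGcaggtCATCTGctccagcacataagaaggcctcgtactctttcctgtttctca
Padi6: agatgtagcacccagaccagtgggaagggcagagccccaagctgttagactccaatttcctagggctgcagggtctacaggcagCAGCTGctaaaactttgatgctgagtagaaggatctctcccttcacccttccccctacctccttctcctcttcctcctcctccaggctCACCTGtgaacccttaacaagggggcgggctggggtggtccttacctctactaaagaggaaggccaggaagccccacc
They hold 3, 5 and 2 matches. CANNTG reads the same on both strands and is short, so that 72.3% of 32851 promoter windows of 300 bases hold it, and 10 of the 11 oocyte genes found in the table do. Those of Zp3 begin 181, 134 and 55 bases before the start. A match describes letters in the window and does not show binding.

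Few genes of earlier germ cell stages were called, and these were lower. Of 15 germ cell genes, 1 was called lower (6.67%) and none higher, and of 16 meiosis genes 2 were called lower (12.5%) and none higher. Of all genes, 2.01% were called lower. Both day 10 arrays lay below both day 0 arrays for 4 of the 15 germ cell genes and 9 of the 16 meiosis genes, against 44.4% of all genes. They lay above for 1 and 0, against 22.9%, and the arrays of the days overlapped for 10 and 7 (median log2 fold changes -0.29 and -0.75). Sox2, a pluripotency factor gene that primordial germ cells also express, fell to 3.21 and 3.28 on day 10, against 6.79 and 8.50 on day 0 (log2 fold change -4.40, adjusted p = 0.0146). Rec8, which encodes a cohesin subunit of meiosis, fell to 5.95 and 5.91 on day 10, against 9.09 and 9.63 on day 0 (log2 fold change -3.43, SE 0.23, adjusted p = 0.00422). Stag3, the gene of another meiotic cohesin subunit, stood at 5.40 and 5.59 on day 10, against 8.14 and 9.61 on day 0. All 3 had both day 10 arrays below both day 0 arrays, as a call requires, and the day 10 arrays of Sox2 lay under 4.82. Stra8, the gene that marks entry into meiosis, stood at 5.47 and 5.47 on day 10, against 6.58 and 9.63 on day 0, and Nanog at 4.18 and 3.78 on day 10, against 4.95 and 6.60 on day 0, and neither passed. Ddx4, which encodes an RNA helicase that marks germ cells, stood at 6.76 and 8.74 on day 10, against 7.37 and 9.61 on day 0. Dazl, which encodes an RNA-binding protein of germ cells, stood at 7.34 and 9.22 on day 10, against 9.15 and 11.12 on day 0. Dppa3, which encodes a factor that the egg also stores, stood at 10.53 and 12.44 on day 10, against 7.90 and 10.08 on day 0 (adjusted p = 0.199). Ddx4 and Dazl overlapped between the days and Dppa3 did not, and the duplicates of all 3 stood over 1 unit apart on both days.

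Germ-line genes differed between duplicates in the same direction on both days. In day 10 replicate 2, 16 of 16 oocyte genes stood above replicate 1 (median difference 1.93), as did 12 of 15 germ cell genes (1.32) and 11 of 16 meiosis genes (0.587). On day 0, 13 of 16 oocyte genes (0.33), 15 of 15 germ cell genes (1.72) and 15 of 16 meiosis genes (1.47) stood higher in replicate 2. Over all genes the same medians were -0.06 on day 10 and 0.07 on day 0. The plot of germ-line genes by array shows these steps. How many germ cells each pool held was not tested. Among all genes, 293 (1.61%) had day 10 arrays over 1 unit apart and 399 (2.19%) had day 0 arrays that far apart, and of 54 called genes with such day 10 arrays, 51 had replicate 2 as the higher one. Of the 15 germ-line genes called, 10 and 5 remained called with only 1 day 10 array (replicate 2 or replicate 1), and 4 and 4 with only 1 day 0 array (adjusted p of the others up to 0.195), and Nlrp14 kept it in all of these fits.

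**Figure D3:**
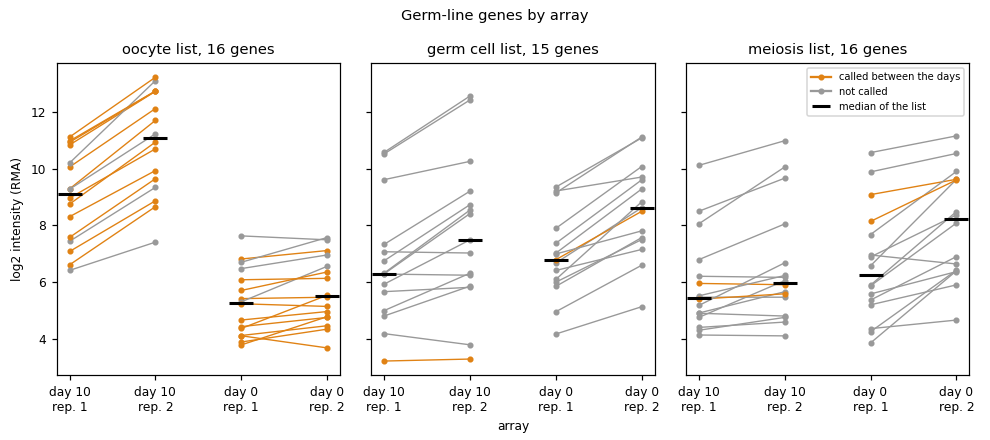
Levels (log2 intensity, vertical axis) of the genes of the oocyte, germ cell and meiosis lists on each of the 4 arrays, with a line joining the duplicates of each gene (orange, called between the days; grey, not called) and a black bar at the median of the list. All 16 oocyte genes step up between day 10 replicates 1 and 2, and all 15 germ cell genes between day 0 replicates 1 and 2.

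Genes of granulosa cells in growing follicles rose in part. Of 16 measured genes, 7 were called higher and none lower, with a median log2 fold change of 1.64. Besides Slc18a2, Nr5a2, which encodes a nuclear receptor of granulosa cells, stood at 11.09 and 10.66 on day 10, against 5.09 and 6.21 on day 0, and Hsd17b1, which encodes the enzyme that turns estrone into estradiol, at 9.05 and 9.14 on day 10, against 5.96 and 5.87 on day 0. Hsd11b2, which encodes the enzyme that inactivates corticosterone, stood at 10.35 and 10.11 on day 10, against 7.31 and 7.97 on day 0, and rose 6.02-fold (log2 fold change 2.59, adjusted p = 0.0139). In each of these both day 10 arrays stood over 2 units above both day 0 arrays. The inhibin gene Inha stood at 12.97 and 12.78 on day 10, against 10.17 and 9.82 on day 0, whereas the partner chain genes Inhba and Inhbb had log2 fold changes of 1.73 and 0.16 that did not pass (adjusted p = 0.063 and 0.722), although Inhba was called on the 4 arrays alone. Nap1l5 and Fam13a had log2 fold changes of 1.71 and 1.21. Fshr, the receptor gene of follicle-stimulating hormone, stood at 6.07 and 5.76 on day 10, against 5.81 and 5.80 on day 0, and Amhr2, the receptor gene of anti-Müllerian hormone, at 13.17 and 12.87 on day 10, against 13.41 and 13.26 on day 0. Fshr overlapped between the days, Amhr2 lay just below day 0 on both arrays, and neither passed.

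Of 10 genes of steroid synthesis, 2 were called higher and 1, Nr5a1, described below, lower. Hsd3b1, which encodes the enzyme that makes progesterone and other delta-4 steroids, stood at 12.63 and 11.99 on day 10, against 7.50 and 9.01 on day 0, and Star, whose protein carries cholesterol into mitochondria, at 7.48 and 8.06 on day 10, against 6.02 and 5.35 on day 0, on 1 of 3 probe sets (median 0.60). The side-chain cleavage gene Cyp11a1, which follows Star in the pathway, stood at 5.77 and 5.53 on day 10, against 6.17 and 6.41 on day 0, and Cyp17a1, which opens androgen synthesis, at 6.36 and 5.91 on day 10, against 7.04 and 7.20 on day 0. In both, the day 10 arrays lay below the day 0 arrays, without a call (adjusted p = 0.115 and 0.0784). None of 19 genes of cholesterol synthesis and transport was called in limma (4 were higher and 1 lower at an unadjusted p under 0.05). Of 14 hormone receptor genes, 4 were called higher and none lower. Pgr, the progesterone receptor gene, stood at 8.41 and 8.53 on day 10, against 5.80 and 6.38 on day 0, and Nr3c2, the mineralocorticoid receptor gene, at 7.65 and 7.21 on day 10, against 5.12 and 5.32 on day 0. Pgr was called on 1 of its 3 probe sets (median 0.41). Nr3c1 and Esr1, the glucocorticoid and estrogen receptor alpha genes, rose 3.3-fold and 2.22-fold, and Esr2, the estrogen receptor beta gene, had a log2 fold change of 1.77 with an adjusted p of 0.0597 (0.0433 on the 4 arrays alone). Of 20 genes that respond to glucocorticoids or androgens, 3 were called higher and 1 lower. Tubb3 stood at 7.22 and 7.43 on day 10, against 5.61 and 5.33 on day 0 (log2 fold change 1.86, adjusted p = 0.037). The study names it as a direct target of the androgen receptor in Sertoli cells, and picked it among genes upregulated on these arrays. Hif3a was the lower call (log2 fold change -1.16), on 2 of 6 probe sets (median -0.33). The transcription factor genes Klf9 and Klf15, known targets of the glucocorticoid receptor, rose 4.35-fold and 2.82-fold, whereas Fkbp5, a target of the same receptor, stood at 11.61 and 11.46 on day 10, against 11.51 and 11.64 on day 0. Of the 14 called genes of granulosa cells, steroid synthesis and hormone receptors, 1 was still called after dropping either day 10 array, and 3 or 6 after dropping replicate 1 or 2 of day 0 (adjusted p of the others up to 0.32), and Slc18a2 kept it in all.

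Pre-granulosa genes fell in part. Of 21 measured genes, 8 were called lower and none higher, with a median log2 fold change of -1.72, and 19 had both day 10 arrays below both day 0 arrays, against 44.4% of all genes. The list holds genes that the study chose on these samples, so that its direction is not independent evidence. Lhx9, a LIM homeobox gene of the gonadal ridge, fell to 8.96 and 9.59 on day 10, against 12.70 and 12.62 on day 0 (log2 fold change -3.39, SE 0.48, adjusted p = 0.023). Gabrb1, a GABA-A receptor subunit gene, fell to 7.90 and 7.61 on day 10, against 10.69 and 10.30 on day 0, and Bmp2, the gene of a bone morphogenetic protein of pre-granulosa cells, to 8.71 and 8.86 on day 10, against 11.26 and 11.09 on day 0. The days stood apart by over 2 units in each of these. Drp2, which encodes a dystrophin-related protein, fell by 2.36 on the log2 scale, and Zim1, an imprinted zinc finger gene, fell by 2.11. The homeobox genes Msx1 and Irx3 had log2 fold changes of -1.93 and -1.88, and Fst, the gene of the activin antagonist follistatin, fell by 1.77. Calls of the genes that set the ovarian path depended on the arrays in the fit. Wnt4 stood at 11.24 and 10.96 on day 10, against 12.58 and 12.34 on day 0, and Rspo1 at 10.22 and 9.46 on day 10, against 11.07 and 11.03 on day 0, below day 0 on both arrays but without a call (adjusted p = 0.0657 and 0.121). Foxl2 stood at 12.92 and 12.68 on day 10, against 11.44 and 11.58 on day 0, above on both arrays and also without a call (adjusted p = 0.159). On the 4 arrays alone Wnt4 was called lower and Foxl2 higher (adjusted p = 0.0226 and 0.0196 in limma), and over the list 16 genes were called lower and 1 higher. Kitl, whose product feeds germ cells through KIT, stood at 13.35 and 12.89 on day 10, against 13.43 and 13.66 on day 0, just below on both arrays (adjusted p = 0.639).

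Of 17 transcription factor genes of the early gonad and their targets, 5 were called lower and none higher (8 and none on the 4 arrays alone). Podxl, the gene of a sialomucin that WT1 regulates, fell to 9.97 and 9.99 on day 10, against 12.46 and 12.86 on day 0 (adjusted p = 0.00511). Nr5a1, the gene of steroidogenic factor 1, had a log2 fold change of -1.50, the polycomb gene Cbx2 -1.31 and the homeobox gene Lhx2 -1.28, to under 4.82. Nr5a1 and Cbx2 were each called on 1 of 2 probe sets (medians -0.83 and -0.75). Gata4, Wt1 and Emx2 had log2 fold changes of -1.48, -0.83 and -1.34 that did not pass (adjusted p = 0.134, 0.291 and 0.102), although Gata4 and Emx2 were called on the 4 arrays alone.

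WNT pathway genes moved in both directions. Of 25 measured, 4 were called lower and 3 higher (9 and 4 on the 4 arrays alone). The 3 that rose encode secreted proteins of antagonist families. Lef1, which encodes a beta-catenin partner and is itself a target, fell to 7.37 and 7.13 on day 10, against 10.84 and 10.65 on day 0 (log2 fold change -3.49, SE 0.21, adjusted p = 0.00332). Sp5, a zinc finger gene that beta-catenin turns on, fell to 7.25 and 7.39 on day 10, against 10.61 and 10.43 on day 0 (log2 fold change -3.20, SE 0.16, adjusted p = 0.00219). Lgr4, a receptor gene for R-spondins, fell by 1.20 on the log2 scale, and Wif1, which also encodes a secreted WNT inhibitor, fell by 2.29, to levels under 4.82. Lgr4 was called on 1 of 2 probe sets (median -0.72). The target gene Axin2 stood at 8.79 and 8.72 on day 10, against 10.40 and 9.93 on day 0, lower on both arrays without a call (adjusted p = 0.0868, and 0.0288 on the 4 arrays alone). Dkk3, of the Dickkopf family, stood at 9.70 and 9.62 on day 10, against 7.001 and 6.61 on day 0, and rose 7.22-fold. The secreted frizzled-related genes Sfrp4 and Sfrp1 rose 5.28-fold and 3.35-fold, whereas Sfrp2 had a log2 fold change of -0.25 with an adjusted p of 0.673.

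The promoter of Sp5 is shown because Sp5 was the 1 called gene of this pathway that kept the call whichever of the 4 arrays was left out. Its 250 bases before the start are given 5′ to 3′ with each CTTTGA, the core that TCF and LEF factors bind, in capitals (RefSeq, GRCm38.p6, chr2:70474673-70474922, plus strand).
Sp5: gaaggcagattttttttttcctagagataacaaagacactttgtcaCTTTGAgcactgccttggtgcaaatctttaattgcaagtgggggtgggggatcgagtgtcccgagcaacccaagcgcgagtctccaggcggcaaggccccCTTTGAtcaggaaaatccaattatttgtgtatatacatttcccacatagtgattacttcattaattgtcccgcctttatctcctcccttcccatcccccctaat
The matches begin 204 and 104 bases before the start. Searched on both strands, CTTTGA occurs in 16% of the 32851 promoter windows and in 3 of the 16 WNT pathway genes found in the table, Fzd1, Lef1 and Sp5. Lef1 and Sp5 fell, and Fzd1 had a log2 fold change of 0.14 with an adjusted p of 0.737.

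Sertoli cell genes, which mark the supporting lineage of the testis, gave calls in both directions. Of 19 measured, 3 were called higher and 1 lower (5 and 1 on the 4 arrays alone), with a median log2 fold change of 0.30. Its members Rerg, Esrp1 and Sox8 also stand in gene tables that the study drew from these arrays. The counts and the median of the list are therefore not independent evidence. Sox9, the defining factor gene, stood at 7.30 and 7.10 on day 10, against 7.30 and 6.59 on day 0, with overlapping arrays, and Fgf9 at 6.62 and 6.81 on day 10, against 7.02 and 6.81 on day 0. Sox8, the relative of Sox9, stood at 6.59 and 6.51 on day 10, against 4.63 and 4.69 on day 0 (log2 fold change 1.89, adjusted p = 0.00741), with the day 0 level under 4.82. Gdnf, the gene of a growth factor for spermatogonia, stood at 7.22 and 6.27 on day 10, against 4.52 and 4.29 on day 0, and Rerg, a RAS-like gene, at 7.98 and 7.56 on day 10, against 5.06 and 4.75 on day 0. Dmrt1, which encodes a DM domain factor needed in the testis, fell to 4.24 and 4.18 on day 10, against 6.62 and 7.10 on day 0. The study describes DMRT1 as a male marker of germ cells as well as supporting cells, and which cells account for its fall was not tested. In Sox8, Gdnf, Rerg and Dmrt1 the days did not overlap, as a call requires. Of 97 measured genes that the study names in its text, picked there partly on these arrays, 16 were called higher and 16 lower. Among them Synm, the gene of an intermediate filament protein of muscle, rose 40.7-fold, with 9.89 and 10.83 on day 10 and 5.21 and 4.81 on day 0, and Zbtb20, a transcription factor gene, rose 9.9-fold. Both of the 2 probe sets of Synm were called, with a smaller change on the other (median log2 fold change 4.03). Trim66, Col22a1 and Ppp1r3g fell, with log2 fold changes of -2.77, -2.61 and -2.58. Of these 32 called genes, the call was kept by 3 and 1 when the first or the second day 10 array was left out, and by 7 and 8 when the first or the second day 0 array was. Of the 23 called genes of the pre-granulosa, gonad factor, WNT and Sertoli lists, 2 and 2 remained called with only 1 day 10 array (replicate 2 or replicate 1), and 6 and 5 with only 1 day 0 array (adjusted p of the others up to 0.32), and Sp5 kept it in all.

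**Figure D4:**
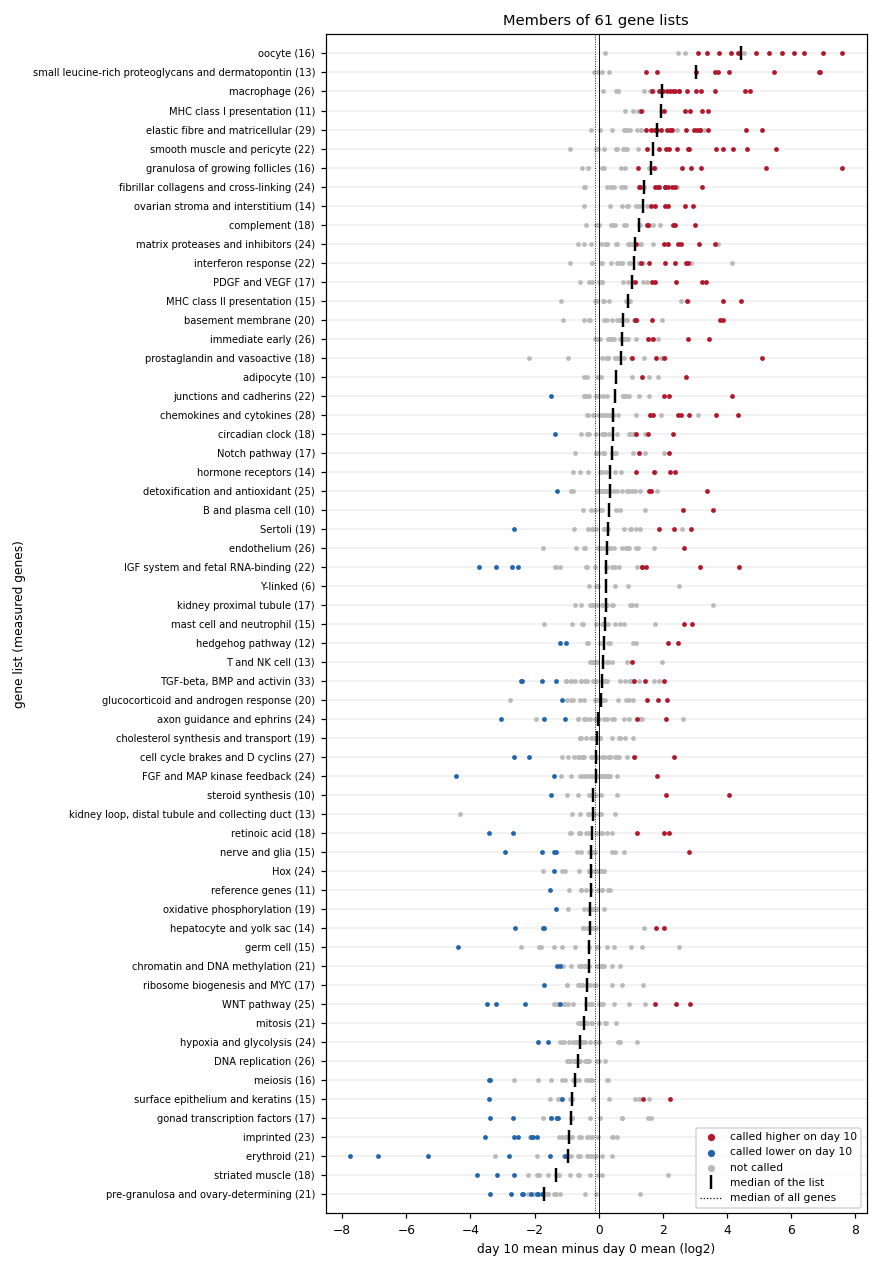
Log2 fold change (horizontal axis, day 10 minus day 0) of each measured member of 61 gene lists, 1 list per line, with the number of measured genes in parentheses; red and blue points were called higher and lower, grey points were not called, and black bars are list medians. The medians run from 4.43 for the oocyte list at the top to -1.72 for the pre-granulosa list at the bottom, around a median of -0.13 for all genes (dotted line).

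In the list of imprinted genes, many of which regulate fetal growth, members were lower in the grafts or not called. Of its 23 measured genes, 6 were called lower and none higher, with a median of -0.92. Imprinted genes outside the list were not counted. Igf2, the fetal growth factor gene, fell to 11.65 and 11.36 on day 10, against 14.06 and 13.99 on day 0 (log2 fold change -2.52, SE 0.18, adjusted p = 0.00458). Mest stood at 11.14 and 11.20 on day 10, against 13.22 and 13.24 on day 0, and Cdkn1c, the gene of the cell cycle inhibitor p57, at 10.25 and 10.53 on day 10, against 13.13 and 12.93 on day 0. Phlda2, which restrains growth of the placenta, fell by 3.54 on the log2 scale, and Nnat fell by 1.91. The duplicates of Igf2, Mest and Cdkn1c lay close together and the days stood over 2 units apart. Igf2, Mest and Nnat are expressed from the paternal allele, and Cdkn1c and Phlda2 from the maternal one. Plagl1, which encodes a factor that regulates other imprinted genes, stood at 13.64 and 13.65 on day 10, against 13.09 and 13.28 on day 0, and Gnas at 13.71 and 13.72 on day 10, against 13.70 and 13.76 on day 0.

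In the IGF system, 5 of 22 genes were called higher and 4 lower. Igf1, the growth factor gene of later life, rose 2.76-fold and its receptor gene Igf1r 2.56-fold, the latter on 1 of 5 probe sets (median log2 fold change 0.455). Igfbp7, which encodes a binding protein of vessel walls and matrix, stood at 13.61 and 13.63 on day 10, against 9.23 and 9.24 on day 0, and rose 20.9-fold (log2 fold change 4.38, SE 0.14, adjusted p = 0.00147). Igfbp6 rose 8.88-fold and Igfbp3 2.55-fold. Igfbp2, a binding protein gene of fetal tissues, fell to 8.51 and 8.57 on day 10, against 12.58 and 11.98 on day 0. The fetal RNA-binding protein gene Igf2bp3 fell to 8.36 and 8.22 on day 10, against 11.11 and 10.88 on day 0, and the chromatin protein gene Hmga2 to 8.95 and 9.37 on day 10, against 12.69 and 12.05 on day 0. In all 3 the groups stood over 2 units apart.

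Of 33 genes of TGF-beta, BMP and activin signalling, 3 were called higher and 4 lower (5 and 5 on the 4 arrays alone). Tgfbr2 and Tgfbr3, receptor genes for TGF-beta, rose 4.11-fold and 2.7-fold on 1 probe set each (medians over all their probe sets 0.17 and 0.87), and the ligand gene Bmp6, made by oocytes among other cells, 2.12-fold. Bmp5 fell by 2.43 on the log2 scale and Id1, a BMP target gene, fell by 1.32, beside Bmp2 and Fst. Of 24 genes of FGF signalling and its feedback, Dusp9, a MAP kinase phosphatase gene, stood at 4.76 and 4.59 on day 10, against 8.81 and 9.45 on day 0, and the receptor gene Fgfr2 at 10.50 and 10.34 on day 10, against 11.96 and 11.68 on day 0. Fgf7, a ligand gene of stromal cells, rose 3.51-fold from under 4.82, and the feedback genes Spry1, Spry2 and Dusp6 were not called, with log2 fold changes of 0.17, -0.23 and 0.31. Of 18 retinoic acid genes, 3 were called higher and 2 lower. Crabp1, the gene of a retinoic acid-binding protein, fell to 4.998 and 5.66 on day 10, against 9.002 and 8.48 on day 0, and Crabp2, of the same family, fell to 5.85 and 6.23 on day 10, against 8.66 and 8.73 on day 0. The retinol carrier gene Rbp4 and Aldh1a1, which encodes a retinal dehydrogenase, rose 4.11-fold and 2.27-fold.

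None of 21 mitosis genes and none of 26 DNA replication genes was called in limma (1 and 15 were lower and none higher at an unadjusted p under 0.05), with medians of -0.45 and -0.64. Mki67, the gene of the proliferation antigen Ki-67, stood at 11.37 and 11.18 on day 10, against 11.08 and 11.44 on day 0, where the arrays overlapped. Of the replication genes, 21 of 26 had both day 10 arrays below both day 0 arrays, against 44.4% of all genes, among them the helicase gene Mcm3 with 10.08 and 10.08 on day 10 and 10.98 and 11.10 on day 0 (adjusted p = 0.0768). Of 27 cell cycle brakes and D cyclins, the inhibitor genes Cdkn1a and Cdkn1c fell, with log2 fold changes of -2.17 and -2.65, and Cdkn2c, the gene of the inhibitor p18, stood at 9.63 and 9.52 on day 10, against 7.14 and 7.30 on day 0, and rose 5.11-fold. Gas6, a ligand gene of TAM receptors, rose 2.13-fold on 1 of 2 probe sets (median 0.44). Mycn, a growth regulator gene of embryos, fell by 1.70, and Myc had a log2 fold change of 1.37 with an adjusted p of 0.0678 (0.0199 on the 4 arrays alone). Of the 32 called genes of the imprinted, IGF, TGF-beta, FGF, retinoic acid and cell cycle brake lists, 3 or 1 were still called after dropping 1 of the day 10 arrays, replicate 1 or 2, and 10 or 12 after dropping those of day 0 (adjusted p of the others up to 0.27), and Igfbp7 kept it in all.

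Matrix genes rose widely. Of 110 measured genes in the matrix lists, 48 were called, all of them higher. Small leucine-rich proteoglycans bind collagen fibrils and growth factors, and with dermatopontin 9 of 13 were called (median 3.03). Dcn, the decorin gene, stood at 14.40 and 14.37 on day 10, against 10.67 and 10.65 on day 0, and rose 13.2-fold (log2 fold change 3.72, SE 0.14, adjusted p = 0.0017). Lum, the lumican gene, stood at 13.82 and 13.89 on day 10, against 9.68 and 9.93 on day 0, and rose 16.6-fold. Aspn, the asporin gene, stood at 11.06 and 10.72 on day 10, against 4.08 and 3.97 on day 0, from levels close to background. In these genes the duplicates lay close together and the days over 3 units apart. Omd rose 8.17-fold, Epyc 12.5-fold from under 4.82, and Bgn, the biglycan gene, 3.5-fold. Fmod, the fibromodulin gene, stood at 9.41 and 8.57 on day 10, against 8.99 and 9.04 on day 0, with overlapping arrays, and Kera, Chad and Podn were not called.

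Of 24 genes of fibrillar collagens and their cross-linking, 11 were called higher (median 1.41). The type VI collagen gene Col6a3 stood at 13.57 and 13.41 on day 10, against 9.95 and 10.63 on day 0, and the other chains Col6a1 and Col6a2 rose 4.47-fold and 4.17-fold. Col1a2, a chain gene of type I collagen, stood at 14.76 and 14.75 on day 10, against 12.81 and 12.98 on day 0, and Col3a1, of type III, at 14.78 and 14.77 on day 10, against 13.44 and 13.51 on day 0, high on both days and higher on day 10. The cross-linking enzyme genes Lox and Loxl1 rose 4.22-fold and 3.67-fold. The cartilage collagen genes Col2a1 and Col11a2 had log2 fold changes of -0.45 and -0.44 and were not called.

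Of 20 basement membrane genes, 5 were called higher. Col4a4, a type IV chain gene of specialised membranes, stood at 10.30 and 10.31 on day 10, against 6.80 and 6.04 on day 0, and rose 14.8-fold, whereas the widespread chain gene Col4a1 rose 2.24-fold. Lama2, the laminin alpha 2 gene, stood at 12.02 and 11.83 on day 10, against 8.06 and 8.22 on day 0, and rose 13.7-fold (log2 fold change 3.78, SE 0.17, adjusted p = 0.00197), whereas the laminin gene Lamc1 had a log2 fold change of -0.27 with an adjusted p of 0.675.

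Of 29 elastic fibre and matricellular genes, 16 were called higher (median 1.81). Mfap5, a microfibril gene, stood at 10.24 and 10.36 on day 10, against 4.98 and 5.45 on day 0, and Mfap4 at 11.92 and 11.69 on day 10, against 8.40 and 8.42 on day 0. Thbs1, the thrombospondin 1 gene, whose protein can activate latent TGF-beta, stood at 11.93 and 11.90 on day 10, against 6.91 and 7.75 on day 0, and rose 24.1-fold. Eln, the elastin gene, rose 3.08-fold, Efemp1 8.96-fold, and the latent TGF-beta binding protein gene Ltbp2 8.93-fold. Tnc and Postn, genes of tenascin C and periostin, had log2 fold changes of 3.29 and 2.43 that did not pass (adjusted p = 0.0696 and 0.0628), although both day 10 arrays lay above both day 0 arrays and both genes were called on the 4 arrays alone. Fbn2, a fibrillin gene of fetal tissues, stood at 12.23 and 11.84 on day 10, against 11.94 and 12.08 on day 0.

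Of 24 matrix proteases and their inhibitors, 7 were called higher. Ctss, the cathepsin S gene of antigen-presenting cells, rose 12.4-fold, and Htra3, a serine protease gene, stood at 11.71 and 11.43 on day 10, against 8.48 and 8.44 on day 0, and rose 8.66-fold. The collagenase gene Mmp13 stood at 3.42 and 3.97 on day 10, against 3.42 and 3.47 on day 0, under 4.82 throughout, and Mmp9, a gelatinase gene, at 6.30 and 6.42 on day 10, against 5.99 and 6.55 on day 0, with overlapping arrays. Mmp12, the macrophage elastase gene, stood at 8.68 and 6.51 on day 10, against 3.95 and 3.83 on day 0, where day 10 replicate 1 was the higher array and the difference did not pass (adjusted p = 0.077). Of the 48 called matrix genes, the call was kept by 10 and 8 when the first or the second day 10 array was left out, and by 17 and 27 when the first or the second day 0 array was (adjusted p of the others up to 0.27), and Aspn, Dcn, Htra3, Lama2, Lum, Mfap4, Mfap5 and Ogn kept it in all.

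Many stromal and smooth muscle genes rose as well. Of 14 stromal genes, 6 were called higher (median 1.37). Cd34, which encodes a sialomucin of stromal progenitors and endothelium, stood at 11.76 and 11.62 on day 10, against 8.87 and 9.15 on day 0, and Pi16, a fibroblast gene, at 8.87 and 8.88 on day 10, against 5.99 and 5.86 on day 0. Pdgfra, a PDGF receptor gene of stroma, rose 3.38-fold. Nr2f2 and Tcf21, factor genes of the fetal interstitium, had log2 fold changes of 0.36 and 0.73 and were not called. Of 22 smooth muscle and pericyte genes, 12 were called higher (median 1.69). Actg2, a smooth muscle actin gene, stood at 10.25 and 10.98 on day 10, against 4.93 and 5.24 on day 0, and rose 46.3-fold (log2 fold change 5.53, SE 0.33, adjusted p = 0.00332). Tagln, the transgelin gene, stood at 11.88 and 12.48 on day 10, against 8.52 and 8.57 on day 0, and Cnn1, the calponin gene, at 8.81 and 9.84 on day 10, against 5.01 and 4.39 on day 0. Day 10 replicate 2 was the higher array in all 3 and the days did not overlap, as a call requires. Abcc9, a potassium channel subunit gene of pericytes, rose 18.2-fold, and Pln, the phospholamban gene, 14.6-fold. Myl9 and Cald1, which non-muscle cells also use, had log2 fold changes of -0.08 and -0.03. Over the 5 probe sets of Cald1, none of them called, the median was 0.60.

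Of 26 endothelial genes, 1 was called higher (3.85%, against 3.87% of all genes), and 3 higher and 1 lower on the 4 arrays alone. Vwf, the gene of von Willebrand factor, stood at 7.36 and 8.27 on day 10, against 4.74 and 5.59 on day 0. Pecam1, a defining gene, stood at 7.96 and 8.39 on day 10, against 7.60 and 8.31 on day 0. Kdr, the VEGF receptor 2 gene, stood at 9.77 and 9.81 on day 10, against 9.65 and 9.53 on day 0, and Cdh5, the VE-cadherin gene, at 10.10 and 10.09 on day 10, against 8.89 and 9.44 on day 0 (adjusted p = 0.116). Pecam1 overlapped between the days, whereas Kdr and Cdh5 lay above day 0 on both arrays without a call. Among 17 genes of PDGF and VEGF signalling, 6 were called higher. Angpt1 and Angpt2, ligand genes of the endothelial receptor TIE2, rose 9.25-fold and 5.31-fold, Pdgfrl 10.1-fold and the ligand gene Pdgfd 3.18-fold, whereas Vegfa had a log2 fold change of -0.60 with an adjusted p of 0.122.

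In the hedgehog pathway, 2 of 12 genes were called higher and 2 lower. Gli1 and Ptch1 are turned on by the pathway. Gli1 stood at 9.04 and 8.73 on day 10, against 6.60 and 6.22 on day 0, and rose 5.54-fold, and Ptch1 stood at 12.14 and 11.93 on day 10, against 9.86 and 9.88 on day 0, and rose 4.48-fold on 1 of 3 probe sets (median 0.68). The ligand gene Dhh stood at 8.32 and 7.50 on day 10, against 6.83 and 6.64 on day 0, higher on both arrays without a call (adjusted p = 0.12), and the coreceptor genes Boc and Cdon fell, with log2 fold changes of -1.03 and -1.20. In the Notch pathway, the ligand gene Jag1 and the receptor gene Notch1 rose 4.54-fold and 2.4-fold, among 17 genes (4 called higher on the 4 arrays alone). Of the 30 called genes of the stroma, smooth muscle, endothelium, PDGF and VEGF, hedgehog and Notch lists, 4 and 3 remained called with only 1 day 10 array (replicate 2 or replicate 1), and 10 and 11 with only 1 day 0 array (adjusted p of the others up to 0.314), and Actg2, Pdgfrl and Tagln kept it in all.

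Many genes of macrophages and of antigen presentation rose. Of 26 macrophage genes, 15 were called higher and none lower (median 1.98). Lyz2, the lysozyme gene of macrophages, stood at 12.80 and 13.11 on day 10, against 8.35 and 8.44 on day 0, and Lyz1, its close relative, at 13.53 and 13.81 on day 10, against 8.96 and 8.96 on day 0. The duplicates lay close together and the days over 4 units apart. Fcgr2b, an inhibitory Fc receptor gene, stood at 9.45 and 9.74 on day 10, against 6.56 and 6.24 on day 0, and rose 9.18-fold. Csf1r, the receptor gene that macrophages need to survive, stood at 11.18 and 11.37 on day 10, against 8.70 and 9.59 on day 0, and its ligand gene Csf1 rose 3.03-fold, on 1 of 4 probe sets (median 0.47). Mrc1 and Cd163, marker genes of tissue macrophages, rose 3.19-fold and, from under 4.82, 5.66-fold. Adgre1, the F4/80 gene, stood at 8.13 and 8.27 on day 10, against 6.27 and 7.34 on day 0, and Cx3cr1 at 7.50 and 7.48 on day 10, against 7.37 and 6.56 on day 0, and neither passed. For Csf1r and Adgre1, day 0 replicate 2 stood clearly above replicate 1. The Y-linked Eif2s3y is carried by XY host cells and not by XX donor cells. As given above, it stood higher on both day 10 arrays on 1 of its 2 probe sets, with a call on the 4 arrays alone. Of the 6 Y-linked genes, 2 lay below day 0 on both day 10 arrays, against 44.4% of all genes, and 2 above, against 22.9%. Day 0 lay under 4.82 for 4 of the 6 and day 10 for 3, so that positions near background say little. The part of host cells in these results was not tested.

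Of 11 genes of MHC class I presentation, 6 were called higher (median 1.94), and all 11 had both day 10 arrays above both day 0 arrays, as 22.9% of all genes had. H2-D1, a classical heavy chain gene, stood at 11.38 and 12.17 on day 10, against 8.46 and 8.67 on day 0. H2-K1, another, stood at 11.77 and 12.62 on day 10, against 9.04 and 9.67 on day 0. Psmb8, a subunit gene of the immunoproteasome, stood at 9.29 and 9.63 on day 10, against 5.62 and 6.49 on day 0, and rose 10.6-fold. Nlrc5, which encodes the activator of class I genes, rose 6.41-fold from levels under 4.82, and the peptide transporter gene Tap2 4.1-fold. B2m, the light chain gene, had a log2 fold change of 1.23 that did not pass (adjusted p = 0.0578), although the other of its 2 probe sets was called higher and the 4 arrays alone gave a call (adjusted p = 0.0295). Of 15 genes of class II presentation, 3 were called higher (median 0.91). H2-Ab1 stood at 9.94 and 10.13 on day 10, against 6.15 and 5.06 on day 0, H2-Aa at 10.92 and 11.17 on day 10, against 7.26 and 7.07 on day 0, and H2-Ea rose 6.68-fold. H2-Eb1 and the invariant chain gene Cd74 had log2 fold changes of 2.79 and 2.56 without a call (adjusted p = 0.0747 and 0.0773), and on the 4 arrays alone both were called, with 5 class II genes in all. Ciita, the activator gene of class II, stood at 5.90 and 5.91 on day 10, against 5.91 and 5.27 on day 0. The H2 genes are close relatives and differ between mouse strains, so that their probe sets may read each other's transcripts, and donor and host strains differ.

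Promoters of both MHC classes are known to carry a Y box, CTGATTGG, that the factor NF-Y binds. Members of both classes rose. The windows of 5 genes were picked because they hold a match, and not all 5 genes were called. They are shown from 150 bases before the start to 10 after it, 5′ to 3′ on the strand of the gene, with the match or its reverse complement in capitals (RefSeq, GRCm38.p6, chr17:34287814-34287973 minus for H2-Aa, chr17:34305717-34305876 plus for H2-Eb1, chr17:35262944-35263103 plus for H2-D1, chr17:34000324-34000483 minus for the second listed start of H2-K1 and chr17:34187321-34187480 minus for Psmb9).
H2-Aa: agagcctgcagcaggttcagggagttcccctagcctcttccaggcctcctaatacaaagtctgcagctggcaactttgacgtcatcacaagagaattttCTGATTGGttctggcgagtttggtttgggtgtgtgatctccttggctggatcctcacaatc
H2-Eb1: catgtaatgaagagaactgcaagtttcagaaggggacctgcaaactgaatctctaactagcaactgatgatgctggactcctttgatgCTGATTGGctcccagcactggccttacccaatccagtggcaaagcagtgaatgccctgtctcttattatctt
H2-D1: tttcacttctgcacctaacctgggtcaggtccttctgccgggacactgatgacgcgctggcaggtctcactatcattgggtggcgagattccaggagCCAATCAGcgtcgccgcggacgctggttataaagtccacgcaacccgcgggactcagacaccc
H2-K1: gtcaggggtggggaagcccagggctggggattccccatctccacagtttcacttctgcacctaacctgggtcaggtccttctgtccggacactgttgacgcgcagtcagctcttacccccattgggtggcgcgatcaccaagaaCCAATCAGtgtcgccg
Psmb9: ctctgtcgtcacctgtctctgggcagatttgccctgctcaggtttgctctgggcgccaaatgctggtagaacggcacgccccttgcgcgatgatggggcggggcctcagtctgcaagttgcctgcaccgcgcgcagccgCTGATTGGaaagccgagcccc
The match begins 51, 62 and 53 bases before the start in H2-Aa, H2-Eb1 and H2-D1, and 6 and 11 bases before it in H2-K1 and Psmb9. Searched on both strands, CTGATTGG occurs in 4.10% of the 32851 windows and in 7 of the 19 class I and II genes found in the table. H2-Aa, H2-D1 and H2-K1 were called higher, whereas H2-Eb1, Psmb9 and Tap1 were not (H2-Eb1 and Psmb9 were on the 4 arrays alone), and H2-Oa, the gene of a class II chain of B cells, stood at 5.88 and 5.89 on day 10, against 7.46 and 6.65 on day 0, below on both arrays (adjusted p = 0.114). The windows of Tap1 and Psmb9 overlap on opposite strands.

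Of 22 interferon response genes, 6 were called higher. The guanylate-binding protein gene Gbp3 stood at 9.50 and 9.71 on day 10, against 6.69 and 7.09 on day 0, and Ifi27l2a at 10.73 and 10.76 on day 10, against 7.87 and 8.05 on day 0, and rose 6.56-fold and 6.91-fold. Cxcl9, a chemokine gene of interferon gamma, stood at 8.53 and 8.20 on day 10, against 4.18 and 4.23 on day 0, far apart but without a call (adjusted p = 0.0579, and 0.00476 on the 4 arrays alone). The antiviral genes Oas1a and Rsad2 had log2 fold changes of 0.06 and -0.91. Of 18 complement genes, 5 were called higher, with C1s1, a protease gene of the classical pathway, at 10.61 and 10.64 on day 10, against 7.51 and 7.74 on day 0, and the protective Cd55 rising 4.98-fold. Of 28 chemokine and cytokine genes, 7 were called higher. Ccl6 stood at 9.47 and 9.96 on day 10, against 5.82 and 6.28 on day 0, and Cxcl12, which guides CXCR4-bearing cells, at 11.66 and 11.32 on day 10, against 8.62 and 9.45 on day 0. The genes of the inflammatory cytokines Tnf, Il6 and Il1b were not called, with log2 fold changes of -0.19, 0.24 and 0.44.

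Among lymphocyte genes, 1 of 13 of T and NK cells (7.69%) and 2 of 10 of B and plasma cells (20.0%) were called higher, against 3.87% of all genes (2 and 2 on the 4 arrays alone). Of the T and NK cell genes, Ncr1, a receptor gene of NK cells, was called, with 5.80 and 5.80 on day 10 and 4.65 and 4.90 on day 0, and Cd3e, a defining gene of T cells, stood at 6.34 and 6.08 on day 10, against 6.48 and 6.49 on day 0. Of the B and plasma cell genes, Jchain stood at 7.41 and 6.60 on day 10, against 3.18 and 3.68 on day 0, and Ighm, the heavy chain gene of IgM, at 10.33 and 9.48 on day 10, against 7.18 and 7.40 on day 0, where 2 of the 11 Ighm probe sets were called. The B cell genes Cd79a and Pax5 had log2 fold changes of -0.24 and -0.12. Of 15 mast cell and neutrophil genes, the mast cell protease genes Cpa3 and Cma1 rose 6.33-fold and 7.46-fold. Of the 46 called genes of these immune lists, 3 or 2 were still called after dropping 1 of the day 10 arrays, replicate 1 or 2, and 6 or 11 after dropping those of day 0 (adjusted p of the others up to 0.322), and Lyz1 and Lyz2 kept it in all.

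Several genes of blood and of other fetal tissues fell. Of 21 erythroid genes, 6 were called lower and none higher (median -0.96). Hba-x, the embryonic zeta globin gene, stood at 5.99 and 5.97 on day 10, against 13.41 and 12.30 on day 0, and Hbb-bh1 at 5.17 and 4.61 on day 10, against 10.33 and 10.12 on day 0. Hbb-y, the embryonic epsilon globin gene, stood at 5.40 and 8.22 on day 10, against 14.61 and 14.49 on day 0, where day 10 replicate 2 stood well above replicate 1 and both far below day 0. Hbb-b2, a globin gene of adult red cells, stood at 6.42 and 6.76 on day 10, against 6.90 and 6.59 on day 0, with overlapping arrays, although its other probe set was called lower (median of both -1.25). Hba-a2, another, stood at 6.71 and 6.69 on day 10, against 6.11 and 6.43 on day 0. Tfrc, the transferrin receptor gene, which dividing cells also use, fell by 1.51 on the log2 scale, with 2 of its 6 probe sets called (median -0.58). Near-identical globin genes may share probes, and probe sets assigned to several genes were not used.

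Of 14 hepatocyte and yolk sac genes, 3 were called lower and 2 higher. Afp, the alpha-fetoprotein gene, fell to 4.92 and 4.79 on day 10, against 7.78 and 7.13 on day 0, and Alb and Apoa2 fell, with log2 fold changes of -1.71 and -1.74. Of 18 striated muscle genes, 3 were called lower (median -1.33). Myh8, the perinatal myosin gene, fell to 4.45 and 4.22 on day 10, against 7.62 and 8.63 on day 0, and the slow troponin genes Tnni1 and Tnnt1 fell as well (log2 fold changes -3.17 and -2.64). Myog, the myogenin gene, stood at 4.30 and 4.31 on day 10, against 7.36 and 4.99 on day 0, and Acta1, the skeletal actin gene, at 5.83 and 6.08 on day 10, against 8.64 and 5.93 on day 0, each high on day 0 replicate 1 alone. How much muscle came with that pool was not tested. Of 15 nerve and glia genes, 4 were called lower and 1 higher. Nefm, a neurofilament gene, fell to 4.64 and 4.23 on day 10, against 7.05 and 7.69 on day 0, and Syt1, a synaptotagmin gene, stood at 8.83 and 8.76 on day 10, against 5.89 and 6.06 on day 0. Hand2, a factor gene of limb, heart and sympathetic neurons that was chosen after its values were seen, fell to 4.94 and 5.43 on day 10, against 8.67 and 8.27 on day 0, on 1 of its 3 probe sets only (median of the 3 -0.35). Of the 19 called genes of these lists, the call was kept by 3 and 3 when the first or the second day 10 array was left out, and by 8 and 7 when the first or the second day 0 array was (adjusted p of the others up to 0.324), and Hba-x and Hbb-bh1 kept it in all.

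Among the remaining lists, junction genes gave 3 higher and 1 lower call in 22. Cldn1, a tight junction gene, stood at 9.16 and 8.74 on day 10, against 4.75 and 4.85 on day 0, and rose 17.8-fold on 1 of its 4 probe sets (median of the 4 0.44, log2 fold change 4.15, SE 0.19, adjusted p = 0.00197), and Cdh3, the P-cadherin gene, fell by 1.48 on the log2 scale. Of 15 surface epithelium genes, Msln, the mesothelin gene, rose 4.66-fold and Lrrn4, a mesothelial gene, fell to 4.89 and 5.69 on day 10, against 9.04 and 8.39 on day 0. Both lists thus held calls in either direction. Ptger2, a prostaglandin E receptor gene, stood at 9.65 and 9.20 on day 10, against 4.04 and 4.65 on day 0, and Ptger4, a second receptor gene, rose 4.08-fold, among 18 vasoactive and prostaglandin genes of which 4 were called higher (6 higher and 1 lower on the 4 arrays alone). The synthase gene Ptgs2 had a log2 fold change of 0.55 with an adjusted p of 0.343. Of 24 axon guidance genes, the repellent gene Sema3a fell to 7.44 and 7.38 on day 10, against 10.66 and 10.26 on day 0, and Ntn1, the netrin gene, rose 4.31-fold.

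Of 26 immediate early genes, 4 were called higher. Ccn2, the gene of connective tissue growth factor, stood at 10.88 and 10.99 on day 10, against 7.30 and 7.70 on day 0, and Egr2 rose 6.93-fold from under 4.82, whereas Fos and Egr1 had log2 fold changes of 1.62 and 1.85 that did not pass (adjusted p = 0.264 and 0.0831), although both were called on the 4 arrays alone. In the circadian list of 18, Nr1d2 rose 4.98-fold, Dbp 2.25-fold and Cry1 fell by 1.36 on the log2 scale. On the 4 arrays alone 5 circadian genes were called higher and 1 lower, and 5 detoxification genes and 4 adipocyte genes were called higher, against 3, 3 and 2 with all 9 arrays. At what hour the tissues were taken is not stated in what was used here. Of 24 hypoxia and glycolysis genes, 2 were called lower, Hk2, a hexokinase gene, with 8.03 and 8.04 on day 10 and 9.43 and 9.83 on day 0, and Adm, the adrenomedullin gene, which hypoxia induces, with 8.09 and 7.88 on day 10 and 10.05 and 9.73 on day 0. Of the 24 genes, 18 had both day 10 arrays below both day 0 arrays, against 44.4% of all genes, and 4 were called lower on the 4 arrays alone. Gapdh, which is often used as a reference, stood at 12.68 and 12.84 on day 10, against 13.80 and 13.58 on day 0 (adjusted p = 0.0728), whereas the reference genes Rplp0 and Ywhaz had log2 fold changes of 0.09 and -0.02. Of 25 detoxification genes, Cbr2, a carbonyl reductase gene, stood at 7.91 and 9.46 on day 10, against 5.31 and 5.30 on day 0, and Selenop, the selenoprotein P gene, rose 2.99-fold. In 10 adipocyte genes, the fat factor gene Pparg stood at 7.84 and 8.14 on day 10, against 4.95 and 5.58 on day 0, while Adipoq, the defining adipokine gene, stood at 6.25 and 5.09 on day 10, against 4.68 and 4.59 on day 0 (adjusted p = 0.73). Among 24 Hox genes 1 was called (3 on the 4 arrays alone), Hoxd9, which fell by 1.38. Of 19 oxidative phosphorylation genes, Cox7a1, a muscle subunit gene of cytochrome oxidase, fell by 1.33, and of 21 genes of chromatin and DNA methylation, Cbx2 fell, as given above, and so did Dnmt3b, the gene of a DNA methyltransferase of embryos (log2 fold change -1.22). Of the 41 called genes of these and the other lists, 3 and 1 remained called with only 1 day 10 array (replicate 2 or replicate 1), and 2 and 6 with only 1 day 0 array (adjusted p of the others up to 0.317), and Cldn1 kept it in all.

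Outside the lists stood 809 of the 1070 called genes. Of those whose call held with any array left out, chosen after their values were seen, Lepr, the leptin receptor gene, stood at 9.70 and 9.29 on day 10, against 4.96 and 5.21 on day 0, and rose 21.2-fold. Of the 4 probe sets of Lepr, 3 moved up and 2 were called (median log2 fold change 2.66). Fgl2, which encodes a fibrinogen-like protein of immune cells, stood at 9.82 and 9.38 on day 10, against 4.88 and 4.69 on day 0, and Vldlr, the very low density lipoprotein receptor gene, at 11.21 and 11.18 on day 10, against 7.99 and 7.89 on day 0. Nupr1, a stress response gene, rose 23.9-fold, Adcy7, an adenylyl cyclase gene, 14.1-fold, and Cnmd, which encodes the cartilage protein chondromodulin, 13.7-fold. In all 6 of them both day 10 arrays stood over 3 units above both day 0 arrays.

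The other arrays place 12 of these genes in time, and are described without a test, since all days share the day 0 arrays. Aspn stood at 10.77, 10.55, 11.12 and 9.98 with 10.998 on days 4, 7, 15 and 20, with 2 arrays for the last, so that its day 4 array already stood near the day 10 level of 11.06 and 10.72. Lyz2 stood at 14.12, 13.72, 11.98 and 13.93 with 13.51 on these days and H2-D1 at 12.29, 13.17, 11.29 and 13.22 with 12.55, both with day 4 or day 7 at or above the day 10 arrays. Hba-x, at 7.46, 6.51, 5.81 and 5.62 with 5.47, and Sox2, at 3.31, 3.20, 3.28 and 3.65 with 3.86, were low from day 4 on. A slower course was seen for Zp3, which stood at 5.03, 8.49, 12.45 and 11.63 with 12.38 and hence near its day 0 level of 4.66 and 4.96 on day 4. Actg2 stood at 6.92, 8.86, 9.89 and 10.02 with 9.41 and Slc18a2 at 10.33, 11.31, 12.22 and 11.73 with 12.29, each with the day 7 array above the day 4 array. Sp5, at 8.83, 8.19, 7.11 and 7.10 with 7.12, and Lef1, at 8.80, 7.93, 7.06 and 7.22 with 7.63, had the day 4 and day 7 arrays between the day 0 and the day 10 arrays. Igf2 stood lower still after day 10, with 11.34 on day 15 and 10.17 and 10.36 on day 20, and Igfbp7 stood at 12.68, 13.25, 13.69 and 13.91 with 13.86. Each of days 4, 7 and 15 has 1 array.

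**Figure D5:**
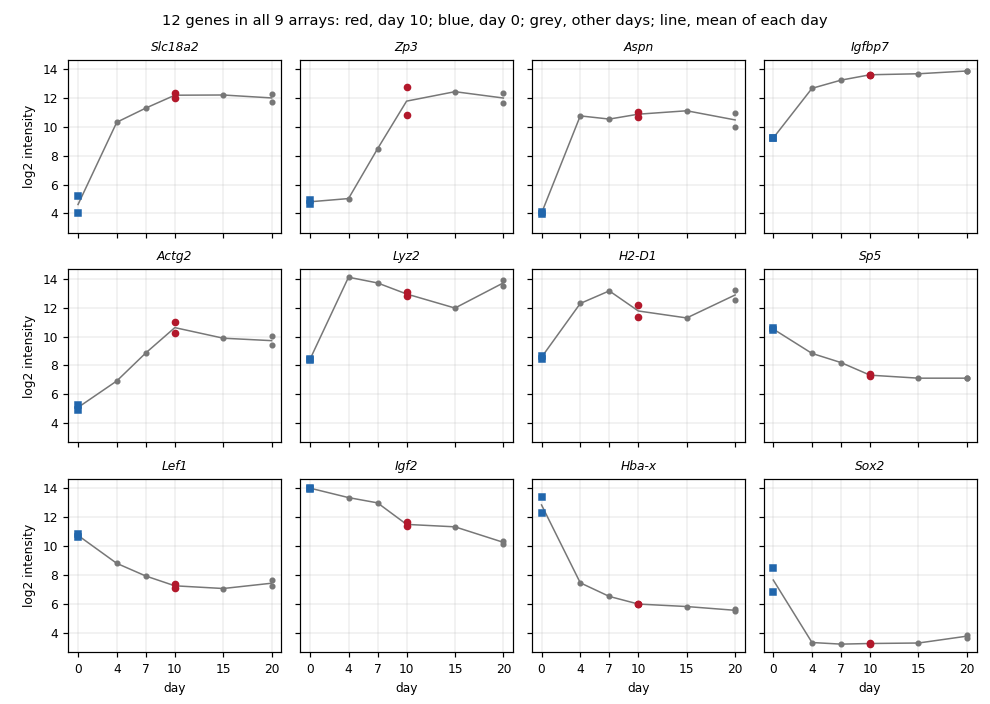
Levels (log2 intensity, vertical axis) of 12 genes on all 9 arrays against days post-transplantation (horizontal axis), with day 10 in red, day 0 in blue, other days in grey and lines through the mean of each day. Aspn and Lyz2 reach 10.8 and 14.1 on day 4, whereas Zp3 is at 5.03 on day 4 and 8.49 on day 7.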

How the data were processed

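Of 9 microarrays, 2 of day 10 grafts and 2 of day 0 ovaries enter the comparison. The authors hybridised RNA, labelled with either of a pair of kits, to Affymetrix mouse arrays, and deposited log2 values of 45101 probe sets that, per the labels, were made by RMA, which corrects background and normalizes across arrays. The kit used for each array is not given in the sources read. No call of presence comes with the values, and their precision is limited by the few arrays. A mean per day was fitted to the log2 values of all 9 arrays (limma 3.58.1, R 4.3.3, lmFit and eBayes, with 3 residual and 2.69 prior degrees of freedom), and p-values were adjusted by Benjamini-Hochberg over all probe sets. A change was called at an adjusted p under 0.05, over 2-fold, with both day 10 arrays beyond both day 0 arrays. Probe sets were named through the platform annotation (34958 with 1 gene symbol, 932 with several and 9211 with none, including 64 control probe sets, which were kept), and a gene was read from its probe set with the highest mean over the 9 arrays, for 18194 genes, of which 9012 had more than 1 probe set. Promoters came from RefSeq (GRCm38.p6, 32851 windows of 300 bases). Tables were handled with Python 3.11.15, pandas 2.3.3 and numpy 2.4.6. The fit was tested on simulated data.

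The genes named are the 15 with the widest gap in each direction, up to 5 called members of each list and direction, genes that the study names and defining members of the lists, other choices being marked as such. The members and the 61 lists were chosen with earlier results of these data known. Alternatives were an intensity trend, array weights, the 4 arrays alone, quantile normalization, centring, filters and floors on low values, fold and gap thresholds, the replicate number as a block, and leaving out each array. Arrays of days 4, 7, 15 and 20 entered the fit and are described for 12 genes only.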

Additional observations from a re-analysis of the deposited data

How the results depend on the processing

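Against 1293 probe sets called higher and 599 lower, array quality weights gave 2034 and 1080, the 4 arrays of days 10 and 0 alone 1774 and 963, and raising values under the 25th percentile to it 295 and 156. Leaving out 1 array gave 69 to 1774 higher and 15 to 963 lower, with the smallest counts without day 10 replicate 2 and the largest without either day 20 array. Of 9598 probe sets with both day 10 arrays above both day 0 arrays, 1618 had a gap of at least 1, and of 17255 below, 714 did, and among those with a mean above the median 8672 lay below. Other filters, thresholds and normalizations kept these counts within 1.5 times, centring included (1271 higher, 861 lower). The replicate number did not pair the arrays, since same-numbered arrays deviated from the means of their days with correlations of -0.16 (days 0 and 10), 0.15 (days 0 and 20) and -0.13 (days 10 and 20), and with the replicate block on these 6 arrays 988 were called higher and 416 lower. The crossed pairing of days 0 and 10, added after seeing the data, called 1651 higher and 664 lower. Of 341 named genes, 22 of the 87 not called changed sign under at least 1 alternative, 4 of them with the median over all probe sets. The 254 called ones kept their direction under the alternatives that gave a value. For fits that leave out an array the rule for a call fixes this in advance, since it sets both day 10 arrays beyond both day 0 arrays. Of the 87, 20 were called on the 4 arrays alone and 21 with array quality weights. Many of the 254 lost the call, 194 or 212 of them on leaving out the first or the second day 10 array, 176 or 159 for the day 0 arrays, 165 with the floor on low values, 41 with the replicate block, 6 with quantile normalization and 4 with centring. The median over all probe sets of a gene took 25 of the called values to under 2-fold. The cause of the losses was not tested beyond the smaller number of arrays in each fit. With 2 arrays a day, dim probe sets and genes whose duplicates differ, such as those of the germ line, have the least certain sizes.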
